A study of Mus musculus with 36 samples.

Results

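The genes described here are 8 genes known for their expression in the mesothelium, the cell layer that covers the lung and lines the pleural cavity: Msln, Muc16, Prg4, Upk3b, Lrrn4, Gpm6a, Wt1 and Bnc1. They were taken by gene symbol from the annotation of the array platform, with the probe set of highest mean kept for each gene. All 8 were found among 19938 named genes, each with 1 probe set, and all 8 were among the 14953 genes tested, which left out those below the 25th percentile of mean level. Prg4 was only just above that limit, with a mean at percentile 25.5, and passed it through its high arrays: without both NNK-treated C3H arrays of week 3 its mean was at percentile 21.2, and without week 3 at 19.2. They were measured in total RNA of mouse lung on Affymetrix Mouse Gene 1.0 ST arrays, 36 arrays in 18 groups of 2. The groups were A/J mice given NNK (8 arrays, weeks 3, 6, 9 and 12), untreated A/J mice (10 arrays, weeks 0, 3, 6, 9 and 12), C3H mice given NNK (8 arrays, the same 4 weeks) and untreated C3H mice (10 arrays, the same 5 weeks). NNK, a carcinogenic nitrosamine of tobacco that causes lung tumours in susceptible strains such as A/J, was given at 100 mg/kg weekly for 4 weeks, and lungs were taken ahead of mature tumours. The controls were labelled as receiving no treatment, so the effect of an injection cannot be told apart from that of NNK. Nothing in the labels shows that both arrays of a group are from different animals, and p-values may therefore reflect only technical spread.

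Mesothelial cells form a flat, polarised epithelium of mesodermal origin that secretes a lubricating film, so that the lung can slide against the chest wall. They are a small part of the lung, and a bulk lung sample carries as much of their RNA as its share of pleural surface allows. In bulk RNA, fewer cells of a type and less RNA per cell cannot be told apart. Msln encodes mesothelin, a surface glycoprotein anchored by a lipid, and Muc16 encodes the large membrane mucin that binds it. Prg4 encodes lubricin, a secreted boundary lubricant of joints and serosal surfaces. Upk3b encodes a uroplakin, Lrrn4 a membrane protein with leucine-rich repeats and Gpm6a a membrane glycoprotein of the proteolipid protein family. Wt1 and Bnc1 encode zinc finger transcription factors.

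The probe sets were 10449000 for Msln on chromosome 17, 10591169 for Muc16 on chromosome 9, 10358476 for Prg4 on chromosome 1 and 10526441 for Upk3b on chromosome 5. Those of Lrrn4 (10487987) and Wt1 (10474295) lie on chromosome 2, that of Gpm6a (10571815) on chromosome 8 and that of Bnc1 (10565204) on chromosome 7. RefSeq promoter entries of build GRCm38.p6 were matched for 5 of the 8 genes, and Msln, Wt1 and Prg4 had no entry. The 250 bases before the annotated start were searched on both strands for GGAATG (the motif of the TEAD family), GCGTGGG (the core bound by WT1 and EGR1) and AGATAA (the GATA family), none of which overlapped another. The windows with a match are printed in transcript direction, because these 3 genes are the only ones of the 5 that held a searched motif. Capitals mark GGAATG or its complement, and lower case marks the rest.
Upk3b, chr5:136038246-136038495, plus strand: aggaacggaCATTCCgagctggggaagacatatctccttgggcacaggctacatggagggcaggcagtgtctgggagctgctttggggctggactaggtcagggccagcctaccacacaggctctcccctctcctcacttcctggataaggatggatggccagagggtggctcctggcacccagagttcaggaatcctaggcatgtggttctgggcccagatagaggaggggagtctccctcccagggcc
Lrrn4, chr2:132880863-132881112, minus strand: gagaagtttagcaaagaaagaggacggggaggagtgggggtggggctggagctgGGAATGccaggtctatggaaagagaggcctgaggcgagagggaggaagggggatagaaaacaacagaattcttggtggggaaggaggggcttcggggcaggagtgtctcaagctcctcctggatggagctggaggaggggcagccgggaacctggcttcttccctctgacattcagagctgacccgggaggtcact
Gpm6a, chr8:54779184-54779433, plus strand: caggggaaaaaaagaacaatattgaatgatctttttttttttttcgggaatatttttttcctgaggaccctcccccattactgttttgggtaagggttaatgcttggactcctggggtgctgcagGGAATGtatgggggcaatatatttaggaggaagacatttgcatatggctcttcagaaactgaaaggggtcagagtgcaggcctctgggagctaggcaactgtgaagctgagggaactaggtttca
The match began 241 bases before the start of Upk3b, on the opposite strand, 196 bases before that of Lrrn4 and 125 bases before that of Gpm6a. The second annotated start of Gpm6a and the windows of Muc16 and Bnc1 held none of the 3 motifs. Of 32851 windows of this length in the table, 12.6% held GGAATG, 4.30% GCGTGGG and 9.99% AGATAA. A match describes the letters of a window and is not evidence of binding.

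All levels below are log2(intensity + 16) after quantile normalization of the arrays to each other, and levels of different genes are not set against each other, because probe sets differ in brightness. The array medians of the deposited intensities lay between 285 and 347. Genes of lung epithelium and endothelium (10 genes, among them the surfactant gene Sftpc and the endothelial gene Pecam1) had a mean level of 12.61 to 12.85 in every array. Within each group the 2 arrays correlated at 0.979 to 0.996 over the genes tested. The mesothelial genes did not follow the groups closely: 2 arrays stood apart from the rest for nearly all of them, and each was 1 of the 2 arrays of a week 3 group. These were the first array of NNK-treated C3H lungs at week 3 and the second array of untreated A/J lungs at week 3. Most of the comparisons that hold them are also given without them or without week 3.

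The first array of NNK-treated C3H lungs at week 3 had the highest level of all 36 arrays for 5 of the 8 genes, and it was among the 4 highest for all 8. Averaged over the 8 genes it lay 1.48 above their 36-array means, or 0.99 above without Prg4. The second array of untreated A/J lungs at week 3 had the highest level for 2 genes and was among the 4 highest for 7. Its mean deviation was 1.16, or 0.79 without Prg4. The second array of NNK-treated A/J lungs at week 6 followed with 0.61, with all 8 genes above their means and the highest level of Gpm6a. The second array of NNK-treated A/J lungs at week 12 had 0.43, again with all 8 genes above their means. At the low end, the second array of NNK-treated A/J lungs at week 3 had a mean deviation of -0.53, with the lowest level of 4 genes, and the first array of untreated C3H lungs at week 3 had -0.51. The extremes at both ends were thus arrays of week 3, and both ends held A/J and C3H lungs and NNK-treated and untreated lungs.

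**Figure D1:**
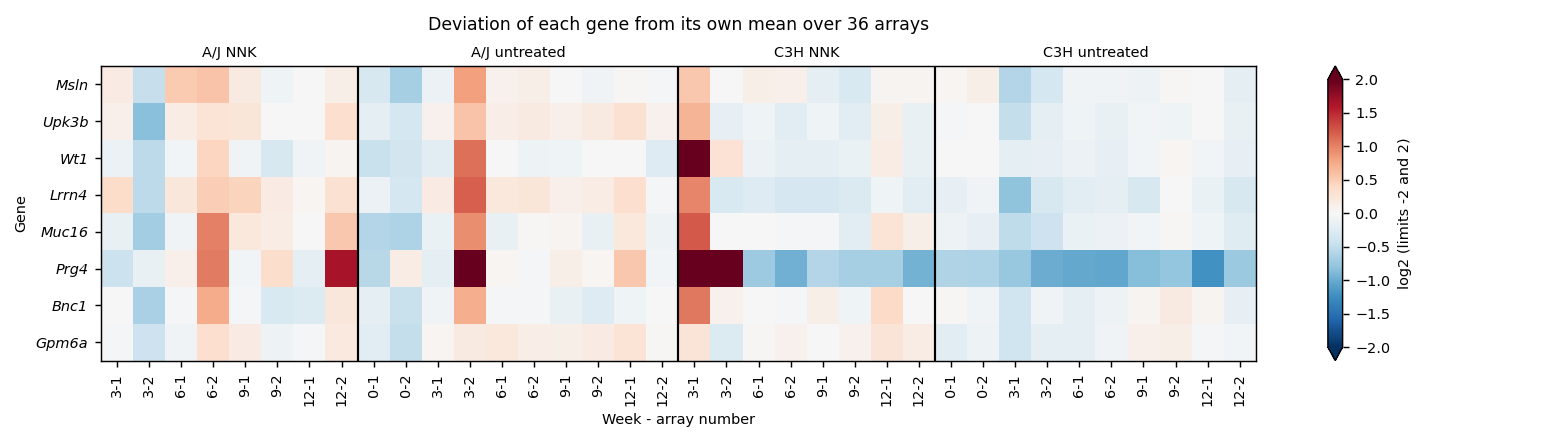
Deviation of each of the 8 genes (rows) from its own mean over 36 arrays, on the log2 scale, for each array (columns, labelled by week and array number within A/J NNK, A/J untreated, C3H NNK and C3H untreated). Colours are limited to 2 either side of 0, and the first C3H NNK array of week 3 and the second A/J untreated array of week 3 are above 0 in all 8 rows.

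Msln and Muc16 encode a surface protein and its binding partner, and both were higher in the arrays that stood apart. In lungs given NNK, Msln ranged from 9.58 to 10.62 in A/J (median 10.19, n = 8) and from 9.75 to 10.59 in C3H (median 10.10, n = 8). In untreated lungs it ranged from 9.38 to 10.86 in A/J (median 10.02, n = 10) and from 9.46 to 10.17 in C3H (median 9.98, n = 10). These ranges overlapped throughout, with the highest value in the untreated A/J array that stood apart. Muc16 ranged from 8.25 to 9.95 in NNK-treated A/J lungs (median 9.04) and from 8.34 to 9.88 in untreated A/J lungs (median 8.83). It ranged from 8.74 to 10.18 in NNK-treated C3H lungs (median 8.94) and from 8.44 to 8.98 in untreated C3H lungs (median 8.83). Each of the first 3 of these groups held an array at 9.88 or above, and the untreated C3H lungs held none.

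Prg4, the lubricin gene, had the widest range, 6.36 to 12.52. In NNK-treated A/J lungs it ranged from 7.14 to 9.23 (median 7.59), and in untreated A/J lungs from 7.01 to 11.30 (median 7.61). In NNK-treated C3H lungs it ranged from 6.61 to 12.52 (median 6.90), and in untreated C3H lungs from 6.36 to 6.97 (median 6.76). Both C3H arrays at week 3 after NNK were high, while the other 6 NNK-treated C3H arrays lay at 6.61 to 6.99, close to the untreated ones.

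The membrane protein genes varied less than Prg4. Upk3b ranged from 10.11 to 11.27 in NNK-treated A/J lungs and from 10.60 to 11.51 in untreated A/J lungs, and from 10.72 to 11.62 in NNK-treated C3H lungs and from 10.47 to 10.95 in untreated C3H lungs. Lrrn4 ranged from 9.62 to 10.64 and from 9.80 to 11.34 in NNK-treated and untreated A/J lungs, and from 9.81 to 11.12 and from 9.35 to 10.14 in NNK-treated and untreated C3H lungs. Gpm6a had the narrowest range, 11.03 to 11.84 over the 36 arrays. The array with the highest level of Gpm6a was not that of the other genes.

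The transcription factor genes Wt1 and Bnc1 had their highest values in few arrays as well. Wt1 in untreated C3H lungs lay between 8.37 and 8.58 in 10 arrays, whereas the highest array of all, NNK-treated C3H at week 3, had 10.74. In A/J lungs Wt1 ranged from 8.03 to 8.98 with NNK and from 8.10 to 9.65 without. Bnc1 ranged from 8.02 to 9.41 in NNK-treated A/J lungs and from 8.22 to 9.40 in untreated A/J lungs. In C3H lungs it ranged from 8.59 to 9.72 with NNK and from 8.27 to 8.85 without. The highest value of both genes came from the same NNK-treated C3H array of week 3.

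**Figure D2:**
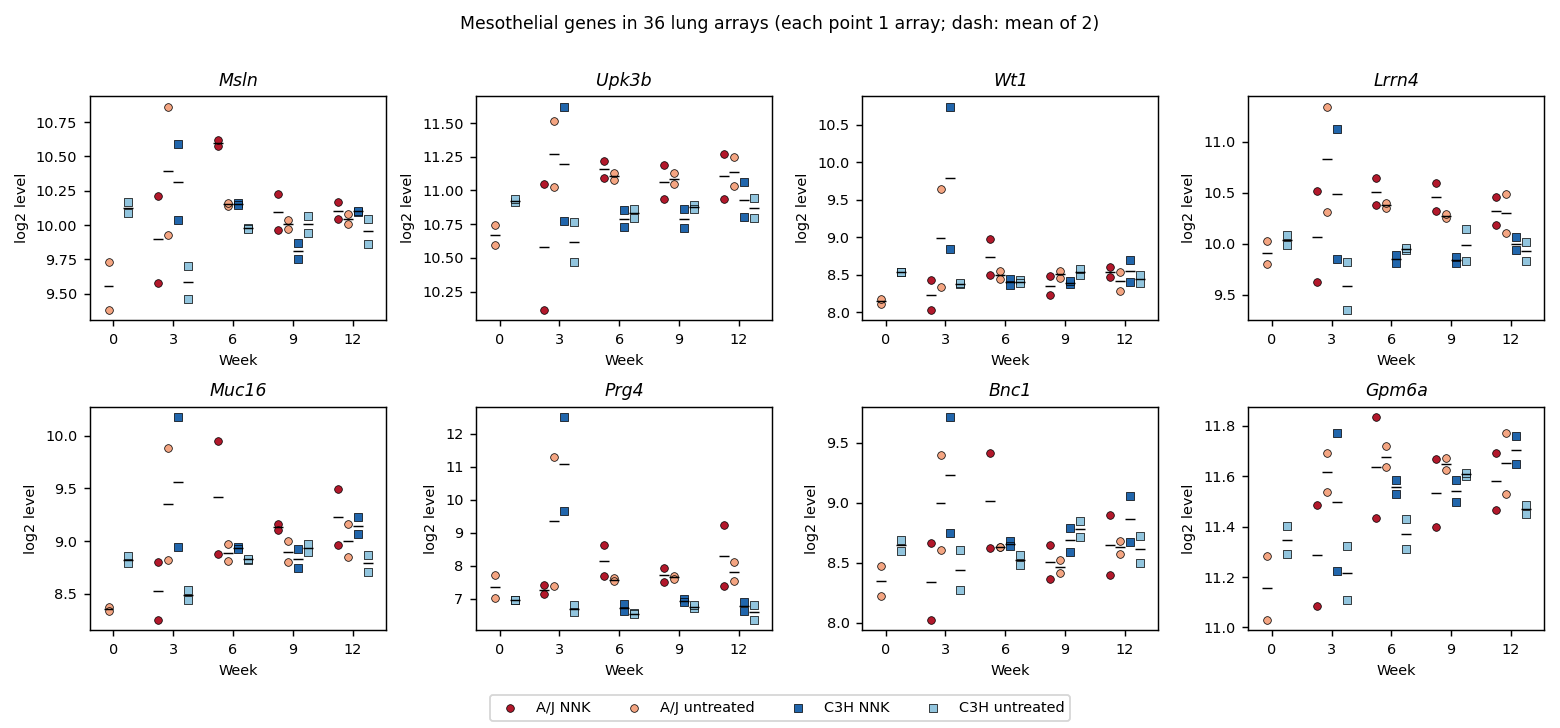
Normalized log2 level (vertical axis, scaled per gene) by week (horizontal axis) in A/J NNK, A/J untreated, C3H NNK and C3H untreated lungs, with 1 point per array and a dash at the mean of the 2 arrays. The points of a group lie farthest apart for Prg4 at week 3, where they span 9.67 to 12.52 in C3H NNK lungs and 7.38 to 11.30 in A/J untreated lungs.

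The 8 genes differed between the 2 arrays of a group more than most genes did, and often in the same direction. The residual standard deviation of a gene around its group means was 0.166 for Gpm6a, 0.232 for Msln, 0.254 for Upk3b, 0.307 for Bnc1, 0.345 for Lrrn4, 0.361 for Muc16, 0.408 for Wt1 and 0.902 for Prg4. The median over the genes tested was 0.0961, and the 8 genes stood between the 91.7th percentile (Gpm6a) and the 99.97th (Prg4). In 14 of the 18 groups the median gap between the 2 arrays was larger over the 8 genes than over all genes. The median gap of the 8 genes ran from 0.04 to 1.10 by group, and that of all genes from 0.0596 to 0.167. All 8 genes were higher in the same array in 4 of the 18 groups, and at least 7 of them in 12 groups. The largest gaps were those of Prg4, 3.92 between the untreated A/J arrays of week 3 and 2.85 between the NNK-treated C3H arrays of week 3.

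Across the 36 arrays, all 28 pairs of mesothelial genes had a Pearson correlation above 0, from 0.30 for Prg4 with Gpm6a to 0.90 for Upk3b with Lrrn4, with a median of 0.74. After each array was set against its group mean, the correlations lay between 0.49 and 0.93 with a median of 0.83. Without the 2 arrays that stood apart, they lay between 0.12 and 0.86 over 34 arrays, with a median of 0.66. Without week 3 they lay between 0.20 and 0.88 over 28 arrays, with a median of 0.63. These values describe arrays that share a strain, a week or a treatment with each other, and the points are not independent.

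Other genes known from the mesothelium followed the same arrays. Of the 14945 other genes tested, the 8 whose levels were most like the mean standardised level of the mesothelial genes over 36 arrays were Cldn15 (r = 0.957), Pkhd1l1 (r = 0.945), Sfrp2 (r = 0.902), Aldh1a2 (r = 0.899), Rpp25 (r = 0.884), Upk1b (r = 0.872), Cfb (r = 0.861) and Flrt2 (r = 0.817). The median r over all these genes was 0.0125 and the 99th percentile 0.530. Cldn15 encodes a tight junction claudin, Aldh1a2 the enzyme that makes retinoic acid, Upk1b a uroplakin tetraspanin and Cfb complement factor B. Sfrp2 encodes a secreted modulator of Wnt signalling, Rpp25 a subunit of ribonuclease P and Flrt2 a membrane protein with leucine-rich repeats. Cldn15, Pkhd1l1, Aldh1a2 and Upk1b also belonged to a list of 15 further mesothelial genes. Without the 2 arrays that stood apart, 6 of the 8 stayed among the 8 most alike, with Cldn15 at 0.930 and Pkhd1l1 at 0.895, and C2 (0.803) and Gpc3 (0.790) took the places of Cfb and Flrt2. Aldh1a2 had a level of 10.42 in the first NNK-treated C3H array of week 3 and 10.20 in the second untreated A/J array of week 3, against 8.29 to 9.40 in the other 34 arrays.

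Gene lists for other cells were set beside these arrays. Of the 15 further mesothelial genes, 14 were on the array, and their mean level was 10.46 in the NNK-treated C3H array that stood apart and 10.28 in the untreated A/J array, against 9.33 to 9.98 in the other 34 arrays. In 1 or other of these arrays, 12 of the 14 had their highest level, and the exceptions were Dmkn and Sulf1. Of 12 genes of pleural cavity macrophages, 11 were on the array, and their mean was 10.33 in the C3H array and 9.67 in the A/J array, against 8.62 to 9.25 elsewhere. Of these, 8 had their highest level in the C3H array. Cd5l, which encodes a secreted macrophage protein, had 11.00 and 9.39, against at most 7.68 elsewhere, and Alox15, the lipoxygenase of resident macrophages of body cavities, had 11.79 and 10.95, against at most 9.58. F5, coagulation factor V, had 10.58 and 9.02, against at most 8.67. The mean of 10 acute-phase genes was 9.68 in the C3H array and 9.60 in the A/J array, against 8.49 to 9.64 elsewhere. Among them only Saa3 and Timp1 had their highest level in either array. Saa3 had 13.33 and 12.32, against at most 11.76 elsewhere, and Timp1, a metalloproteinase inhibitor, had 10.84 and 10.37, against at most 9.50. The mean of 10 genes of submesothelial and adventitial fibroblasts was 11.10 in the C3H array, the highest of all, and 10.90 in the A/J array (rank 13), against 10.57 to 11.03 elsewhere, and 5 of the 10 were highest in the C3H array. The mean of 11 mesothelial activation and matrix genes was 10.71 in the C3H array, again the highest, and 10.51 in the A/J array (rank 15), against 10.30 to 10.63 elsewhere, with 4 of the 11 highest in the C3H array. The mean of 7 keratin and apical genes of simple epithelia was 10.90 in the C3H array (rank 35) and 11.32 in the A/J array (rank 4). The means of the adipocyte, skeletal muscle, cardiac muscle, skin, cartilage, thymus and liver lists did not have their highest value in either array. The cartilage mean was nevertheless 7.96 in the C3H array (rank 2) and 7.77 in the A/J array (rank 25), against 7.49 to 7.98 elsewhere. Of its 8 genes, 3 were highest in the C3H array. The skin mean had rank 5 in the C3H array and rank 9 in the A/J array. The mean of the lung epithelial and endothelial genes was lowest of all 36 arrays in the C3H array, 12.61, against 12.72 to 12.85 in the others. It ranked in the middle (15 of 36) in the A/J array. The part of pleural content or of cavity cells in the values of these arrays was not tested.

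**Figure D3:**
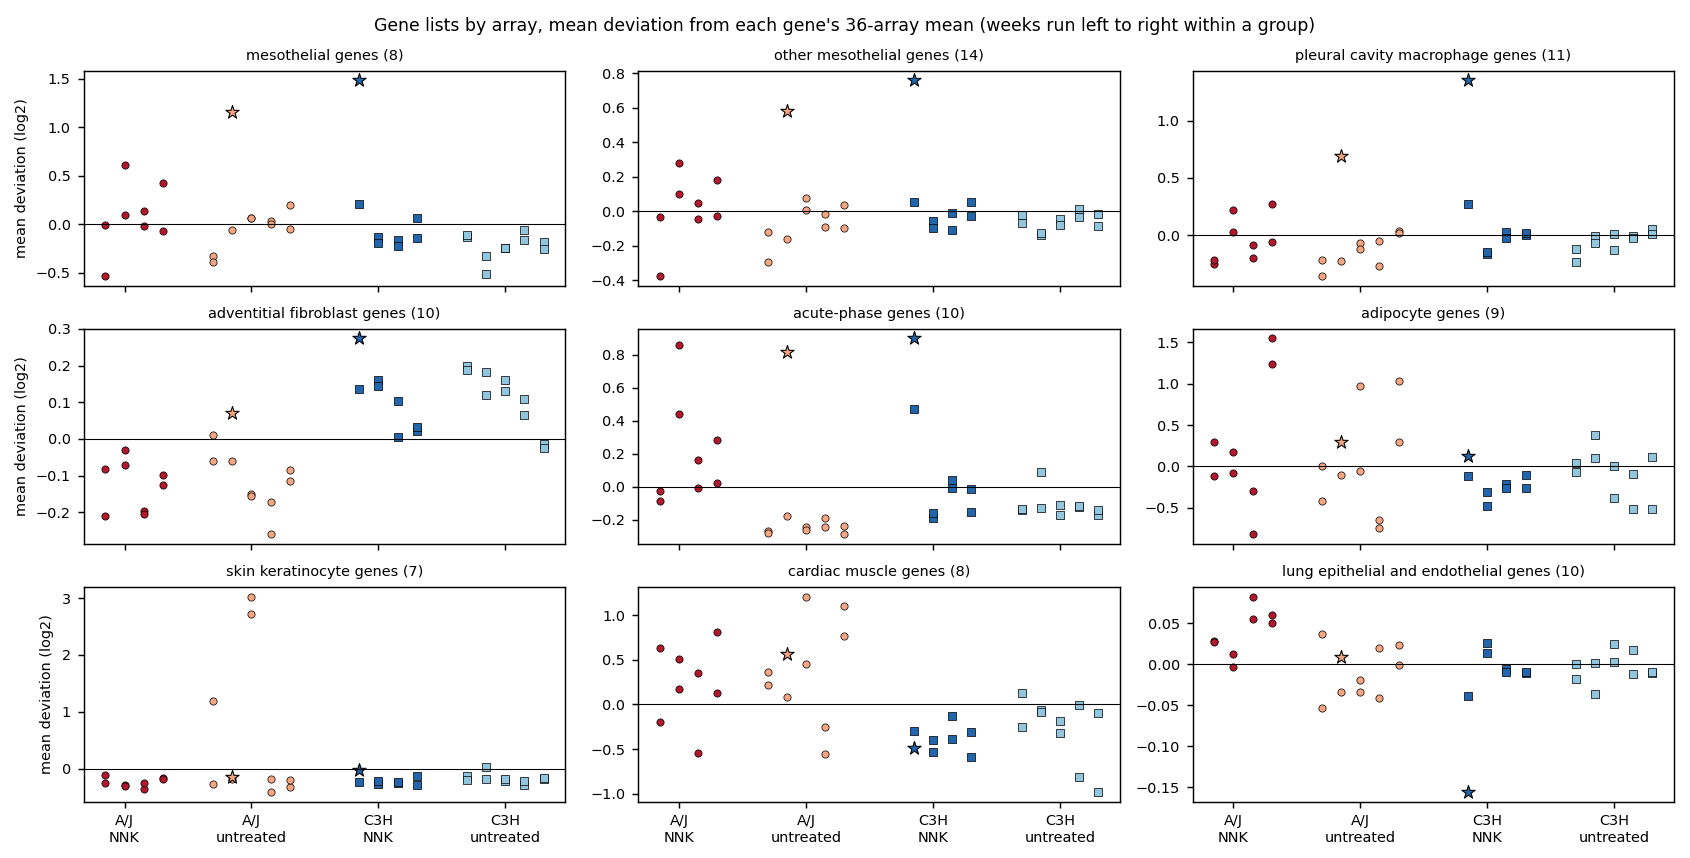
Mean deviation of 9 gene lists from each gene's 36-array mean (log2, vertical axes scaled per list), 1 point per array, in A/J NNK, A/J untreated, C3H NNK and C3H untreated lungs with weeks running left to right. Stars mark the 2 arrays that stood apart, which lie highest for the mesothelial genes (1.48 and 1.16), the other mesothelial genes and the pleural cavity macrophage genes.

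The effect of NNK averaged over weeks 3 to 12 was asked first. No mesothelial gene passed the limma test in A/J lungs, where 7.44% of all genes passed upward and 2.60% downward. Of the 8, 0 had an unadjusted p under 0.05, against 4007 of 14953 genes. The changes on the log2 scale were 0.02 for Msln, 0.04 for Muc16, -0.24 for Prg4, -0.17 for Upk3b, -0.10 for Lrrn4, -0.14 for Gpm6a, -0.14 for Wt1 and -0.05 for Bnc1, with standard errors of 0.08 (Gpm6a) to 0.40 (Prg4). Their median was -0.12, against 0.01 over all genes. The changes ran from -0.12 to 0.25 without the 2 arrays that stood apart, with 6 of 8 above 0 and a median of 0.04. No mesothelial gene passed in C3H lungs either, where 0.0803% of all genes did. In C3H lungs 3 of the 8 had an unadjusted p under 0.05, as had 936 of 14953 genes. There all 8 changes were above 0, from 0.13 for Upk3b to 0.36 for Muc16 and 1.24 ± 0.40 (SE) for Prg4, whose adjusted p in limma was 0.555 (unadjusted 0.00561). The median was 0.24, against -0.01 over all genes. None of the 8 passed in C3H with any 1 array left out. The changes were smaller without the 2 arrays that stood apart, with a median of 0.12, and were 0.88 for Prg4 (adjusted p = 0.134), 0.20 for Muc16, 0.15 for Bnc1, 0.14 for Msln, 0.10 for Wt1, 0.09 for Gpm6a and 0.02 each for Upk3b and Lrrn4. The difference of the NNK changes, A/J minus C3H, was below 0 for all 8 genes (median -0.31, against 0.02 over all genes). It was -1.48 ± 0.57 (SE, adjusted p = 0.173) for Prg4 and -0.30 ± 0.11 (SE, adjusted p = 0.153) for Gpm6a, and no mesothelial gene passed, where 1.13% of all genes did. These 2 genes had an unadjusted p under 0.05, as had 2715 of 14953 genes. With the 2 arrays that stood apart left out, the difference was -0.63 for Prg4 (adjusted p = 0.188) and -0.21 for Gpm6a (adjusted p = 0.211), its median was -0.09, and 7 of the 8 were below 0, all but Lrrn4 (0.0035).

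By week, the values at week 3 ran in opposite directions in the 2 strains. In C3H lungs at week 3, Prg4 had 12.52 and 9.67 after NNK, against 6.81 and 6.58 untreated. The deposited intensities were 6159.8 and 795.5 after NNK, against 86.8 and 76.6. Both NNK-treated arrays were above both untreated ones, and they differed from each other more than the untreated ones did. Prg4 rose by 4.40 ± 0.81 (SE), 21.1-fold, with an adjusted p of 0.0274 in limma, the only mesothelial gene to pass in the C3H week 3 comparison, where 0.0268% of all genes passed upward and 0.0936% in either direction. Prg4 was among the genes tested only through its high arrays, these 2 among them. Without these 2 arrays its mean was at percentile 21.2, below the limit of 25, so the call is not independent of the filter. The call was lost without the first NNK-treated array, where the change was 2.97 (adjusted p = 0.9996). With both arrays that stood apart left out, the change was the same 2.97 and passed (adjusted p = 0.0128), where 0.0334% of all genes passed upward. In both of these fits 1 NNK-treated array is left, and the spread comes from the other groups. The arrays that stood apart were left out after their levels were seen, and their groups had the largest gaps of Prg4. Leaving both out lowers the estimated spread and not the change of 2.97, so this pass is not further evidence for the call. It was also lost without either untreated array, at 4.51 (adjusted p = 0.186) and 4.28 (adjusted p = 0.228).

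The other 7 genes at this week were higher after NNK without passing. Wt1 had 10.74 and 8.84 after NNK, against 8.37 and 8.38 untreated, a difference of 1.41 ± 0.37 (SE, adjusted p = 0.130). Muc16 had 10.18 and 8.94, against 8.44 and 8.54 untreated (difference 1.07 ± 0.32, SE). In both genes the first NNK-treated array was far above the second, and the groups did not overlap. Lrrn4 had 11.12 and 9.85 after NNK, against 9.35 and 9.82, and the second NNK-treated array lay close to the higher untreated one. The differences were 0.90 for Lrrn4, 0.80 for Bnc1, 0.73 for Msln, 0.58 for Upk3b and 0.28 for Gpm6a. Without the first NNK-treated array, which leaves 1 array in that arm, they were 0.46 for Wt1, 0.45 for Muc16, 0.26 for Lrrn4, 0.31 for Bnc1, 0.45 for Msln, 0.16 for Upk3b and 0.01 for Gpm6a. Both NNK-treated arrays were above both untreated ones for 7 of the 8 genes, all but Gpm6a, where 17.0% of all genes had such an arrangement. An unadjusted p under 0.05 was found for 7 of the 8, as for 2125 of 14953 genes. The 8 genes varied together between arrays, so these are not separate results. Without the second NNK-treated array, 7 of the 8 genes passed, all but Gpm6a, where 1.56% of all genes passed upward, and without the first none did. The first of these fits leaves the array that stood apart as the only NNK-treated one, with the spread taken from the other groups. Among the further mesothelial genes 0 of 14 passed and 13 were above 0, with the smallest adjusted p for Upk1b (0.92 ± 0.27, SE, adjusted p = 0.156) and Pkhd1l1 (1.31 ± 0.40, SE, adjusted p = 0.172). Of the 9 macrophage genes tested, 0 passed and 8 were above 0, among them Alox15 with 2.21 and F5 with 1.50 (adjusted p = 0.130 each). Saa3, the acute-phase gene named above, rose by 4.99 ± 0.80 (SE, adjusted p = 0.0120), and Timp1 differed by 1.52 (adjusted p = 0.163).

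In A/J lungs at week 3, all 8 mesothelial genes were lower after NNK, and none passed the test, where 0.354% of all genes did. All 8 had an unadjusted p under 0.05, as had 1909 of 14953 genes. The 8 genes varied together between arrays, so these are not 8 separate results. Prg4 had 7.14 and 7.42 after NNK, against 7.38 and 11.30 untreated, and the groups overlapped. The difference was -2.06 ± 0.81 (SE, adjusted p = 0.286). Muc16 had 8.80 and 8.25 after NNK, against 8.82 and 9.88 untreated, so that both NNK-treated arrays were below both untreated ones, by little in the first of each. Gpm6a had 11.48 and 11.09, against 11.54 and 11.69, and its groups did not overlap either. The groups overlapped for the other 6 genes, and 13.1% of all genes were lower without overlap. The differences ran from -0.33 (Gpm6a) to -0.82 (Muc16) for the genes other than Prg4, with a median of -0.72 over the 8, against 0.02 over all genes. Without the second untreated array, the one that stood apart, they were -0.03 for Msln, -0.10 for Prg4, -0.11 for Wt1, -0.24 for Lrrn4, -0.25 for Gpm6a, -0.26 for Bnc1, -0.29 for Muc16 and -0.45 for Upk3b, with a median of -0.25, and none passed. Without the first untreated array, Msln (-0.97, adjusted p = 0.0164) and Prg4 (-4.02, adjusted p = 0.00558) passed, where 0.702% of all genes passed downward, and this leaves the array that stood apart as the only untreated one. Without the first NNK-treated array, Upk3b passed (-1.16, adjusted p = 0.0447), where 0.0468% of all genes passed downward, and the array left in that arm had the lowest Upk3b level of all 36. In each of these 3 fits the spread of the arm with 1 array comes from the other groups.

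At weeks 6, 9 and 12 no mesothelial gene passed in either strain. An unadjusted p under 0.05 was found for 1, Msln in A/J at week 6, where 3781 of 14953 genes had it. The shares of all genes called at these weeks were 7.27%, 1.54% and 0.0736% in A/J lungs, and 0.0134%, 0% and 0% in C3H lungs. At week 6 in A/J, Msln had 10.58 and 10.62 after NNK, against 10.14 and 10.16 untreated. The arrays of each group lay close together and the groups did not overlap, an arrangement that 32.0% of all genes had in this direction. The difference was 0.45 ± 0.21 (SE, adjusted p = 0.186). With the week 3 arrays left out of the fit, the same difference passed (adjusted p = 0.0103), where 6.53% of all genes passed upward. The difference itself does not draw on the week 3 arrays, which enter only the estimated spread. They were left out after their large gaps in these genes were seen, so this pass is not further evidence for the difference. The untreated A/J arrays of week 6 also held skin keratinocyte genes, whose mean level was 11.05 and 11.35 there and 9.51 in the second untreated A/J array of week 0, while no other array exceeded 8.35. Of the 7 skin genes, 5 were called lower after NNK at that week (median -3.57 over the 7). No A/J comparison of week 6 is left without these arrays, and the part of the skin genes' source in the Msln difference was not tested. Muc16 at that week had 8.88 and 9.95 after NNK, against 8.81 and 8.97, and 1 NNK-treated array lay within the untreated range. In C3H lungs Prg4 at weeks 6, 9 and 12 had 6.84 and 6.61, 6.99 and 6.90, and 6.91 and 6.63 after NNK. The untreated lungs had 6.56 and 6.52, 6.72 and 6.80, and 6.36 and 6.82 at the same weeks. The differences were 0.19, 0.18 and 0.18, each with a standard error of 0.81. A moderated F test of whether the 4 weekly changes were equal called no mesothelial gene in A/J (0.221% of all genes called) or in C3H (0% called). There were 2 with an unadjusted p under 0.05 in A/J and 3 in C3H, against 2326 and 689 of 14953 genes. The unadjusted p for Prg4 in C3H was 0.00197 and its adjusted p 0.971.

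**Figure D4:**
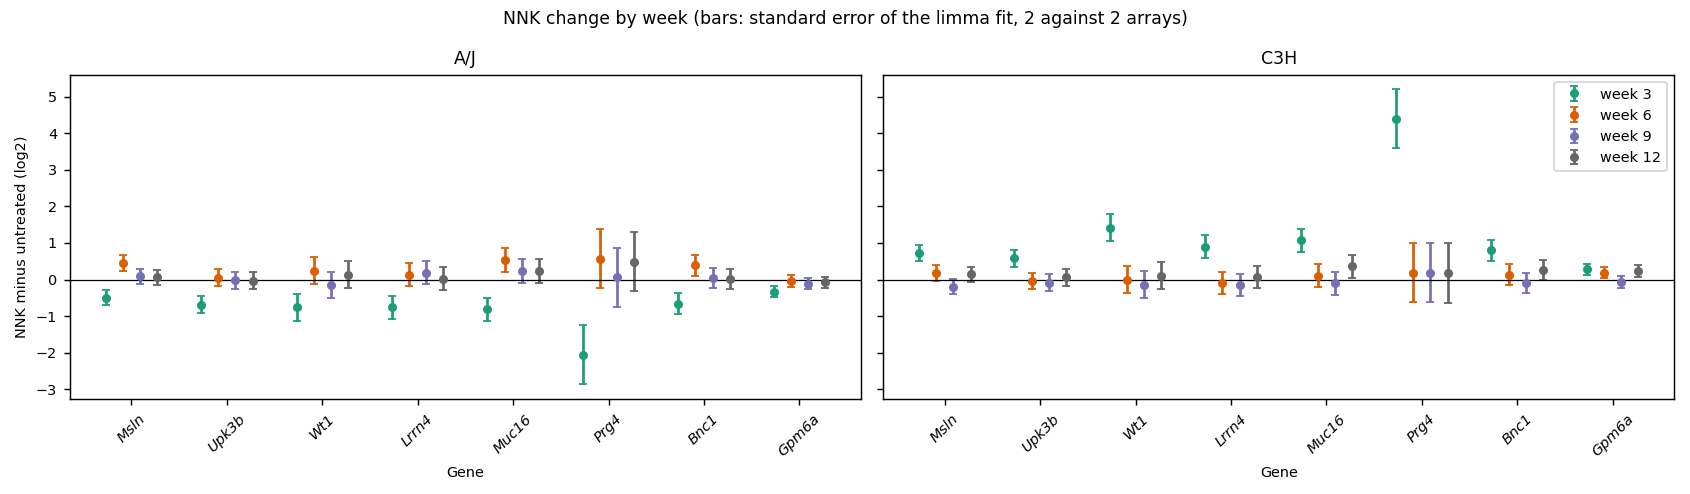
Difference between NNK-treated and untreated lungs (log2, vertical axis) for each mesothelial gene (horizontal axis) at weeks 3, 6, 9 and 12, in A/J (left) and C3H (right), with bars for the standard error of the fit on 2 against 2 arrays. At week 3 all 8 points lie below 0 in A/J and above 0 in C3H, and Prg4 in C3H stands at 4.40.

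The strains were compared in untreated lungs over weeks 0 to 12. Prg4 and Lrrn4 were higher in A/J, 2 of the 8 genes, where 19.8% of all genes were called higher and 56.1% in either direction. Prg4 lay between 7.01 and 11.30 in 10 untreated A/J arrays and between 6.36 and 6.97 in 10 untreated C3H arrays. Every untreated A/J array was thus above every untreated C3H array, by little at the border, and 2.55% of all genes had this arrangement. The difference was 1.24 ± 0.36 (SE, adjusted p = 0.00553). Without the 2 arrays that stood apart it was 0.85. Without week 3 it was 0.89 (adjusted p = 0.000885), where 19.3% of all genes were called higher. These arrays were left out after seeing the data. Prg4 was in these fits only through its high arrays. Its mean was at percentile 20.1 without the 2 arrays and at 19.2 without week 3, below the limit of 25. The call of Prg4 is thus not independent of the filter. With no filter, 2 of the 8 genes passed, where 9977 of 19938 genes were called. Lrrn4 averaged 10.34 ± 0.41 in untreated A/J lungs and 9.90 ± 0.22 in untreated C3H lungs (SD, n = 10 each), with overlapping ranges. Its difference was 0.44 ± 0.14 (SE, adjusted p = 0.0100), against 0.34 without the 2 arrays that stood apart (adjusted p = 0.00454) and 0.24 without week 3 (adjusted p = 0.00506). Upk3b (0.23, adjusted p = 0.0606) and Gpm6a (0.15, adjusted p = 0.0711) did not pass. The values of Msln (0.10), Muc16 (0.12), Wt1 (0.05) and Bnc1 (0.01) did not pass either.

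In NNK-treated lungs, which are other arrays, the strain difference of Prg4 depended on week 3. Over weeks 3 to 12 no mesothelial gene passed, where 53.3% of all genes did. Of the 8, 0 had an unadjusted p under 0.05, against 8708 of 14953 genes. Prg4 averaged 7.86 ± 0.71 in A/J and 7.88 ± 2.13 in C3H (SD, n = 8 each). Over weeks 6 to 12, Prg4 lay between 7.37 and 9.23 in 6 A/J arrays and between 6.61 and 6.99 in 6 C3H arrays, with no overlap, where 10.4% of all genes were higher in A/J without overlap. Without week 3 the difference of Prg4 was 1.24 (adjusted p = 0.000193), against -0.02 with it. Lrrn4 lay between 10.19 and 10.64 in these A/J arrays and between 9.81 and 10.06 in these C3H arrays, also with no overlap (difference 0.53, adjusted p = 1.39e-05). Upk3b (0.27, adjusted p = 0.00205) and Msln (0.25, adjusted p = 0.00136) were higher in A/J as well, so that 4 of the 8 genes passed without week 3, where 21.3% of all genes passed upward. Week 3 was left out after its large gaps in these genes were seen, as were the 2 arrays that stood apart. Leaving week 3 out changes both the differences and the estimated spread. The 4 passes are therefore not a separate test of the strain difference. Without week 3 the mean of Prg4 was also below the filter limit, at percentile 19.2. Lrrn4 also passed without the 2 arrays that stood apart (0.45, adjusted p = 0.00130), where 22.3% of all genes passed upward.

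The further mesothelial genes did not share 1 direction between the strains. In untreated lungs 5 of the 14 were higher in A/J and 6 lower, where 56.1% of all genes were called and 19.8% higher. Dmkn, which encodes dermokine (0.58 ± 0.10, SE), Pkhd1l1 (0.54), Anxa8, an annexin (0.39), Slpi, a protease inhibitor (0.36), and Upk1b (0.34) were higher in A/J. Krt19, a keratin of simple epithelia (-0.43 ± 0.05, SE), Gata5, a transcription factor (-0.39), Ptgis, prostacyclin synthase (-0.33), Ildr2 (-0.29), Rspo1, a secreted enhancer of Wnt signalling (-0.22), and Sulf1, a heparan sulfatase (-0.14), were lower. The adjusted p of these 11 genes ran from 6.55e-08 for Krt19 to 0.0492 for Slpi. Unlike the rest of the list, Dmkn and Sulf1 had their highest level in neither array that stood apart. Which cells of the lung carried these strain differences was not tested. In NNK-treated lungs 3 passed upward (Anxa8, Dmkn and Upk1b) and 6 downward (Krt19, Ptgis, Gata5, Rspo1, Sulf1 and Ildr2), where 53.3% of all genes were called.

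**Figure D5:**
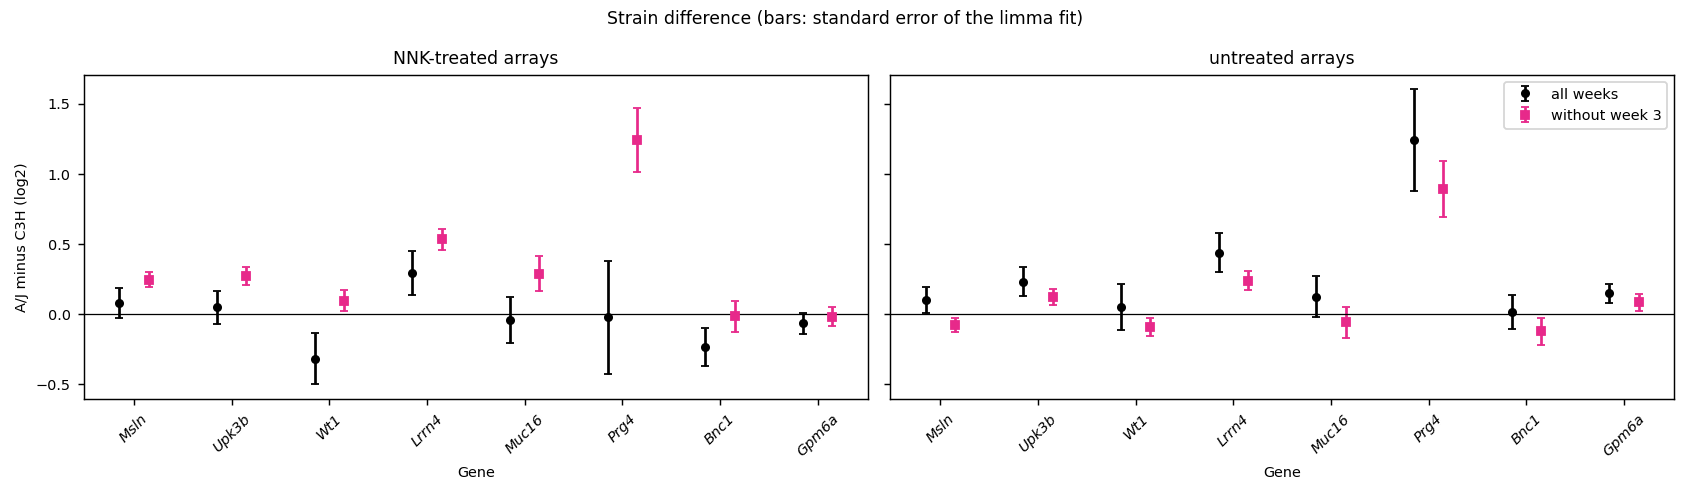
Difference between A/J and C3H lungs (log2, vertical axis) for each mesothelial gene (horizontal axis) in NNK-treated arrays (left) and untreated arrays (right), over all weeks (circles) and without week 3 (squares), with bars for the standard error of the fit. Prg4 in NNK-treated arrays stands at -0.02 over all weeks and at 1.24 without week 3.

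Over the 12 weeks of untreated lungs, Gpm6a rose in A/J. Its levels were 11.28 and 11.03 at week 0, 11.54 and 11.69 at week 3, 11.72 and 11.64 at week 6, 11.62 and 11.67 at week 9, and 11.77 and 11.53 at week 12. The arrays of week 0 were the lowest, and those of later weeks overlapped with each other. The linear change over 12 weeks was 0.41 ± 0.14 (SE, adjusted p = 0.0361), 1 of the 8 genes, where 17.5% of all genes rose and 22.8% were called in either direction. The call was lost without any 1 of 4 untreated A/J arrays: the second of week 0 (0.31, adjusted p = 0.211), the first of week 3 (0.38, adjusted p = 0.0723), the second of week 9 (0.40, adjusted p = 0.0635) and the first of week 12 (0.31, adjusted p = 0.189). The second array of week 0, the lowest for Gpm6a, had the highest mean of the skeletal muscle genes of all 36 arrays (9.37, against at most 8.29 in the others) and the highest level of the skin genes Lor (13.65) and Krt5 (10.22). Without this array and both of week 6, the 3 with skin genes, the change of Gpm6a was 0.31 and did not pass (adjusted p = 0.222). The part of these other tissues in the trend was not tested.

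Msln in untreated A/J lungs had 9.73 and 9.38 at week 0 and between 9.97 and 10.16 in the 6 arrays of weeks 6 to 12, with 9.93 and 10.86 at week 3. Without week 3 its change over 12 weeks was 0.47 (adjusted p = 0.00209), and those of Upk3b (0.47), Lrrn4 (0.38), Muc16 (0.65) and Gpm6a (0.50) passed too, 5 of the 8 genes, where 19.5% of all genes rose. This fit keeps the second array of week 0 and both of week 6, the arrays with skin genes. Week 3 was left out after seeing the data, and the part of the other tissues in these 5 trends was not tested. With week 3 in the fit, the values were 0.23 for Msln, 0.30 for Upk3b, 0.08 for Lrrn4 and 0.34 for Muc16, and none of these passed. The week 0 arrays of A/J were low for most of these genes, with mean deviations over the 8 genes of -0.33 and -0.39. Of the further mesothelial genes, Gata5 (0.41), Rspo1 (0.56) and Ptgis (0.41) rose over the weeks in A/J, 3 of 14, and none fell. In this fit, with week 3, 17.5% of all genes rose. The part of the other tissues in these 3 trends was not tested either. In untreated C3H lungs no mesothelial gene passed, where 0.863% of all genes did. There 0 of the 8 had an unadjusted p under 0.05, against 1813 of 14953 genes. The values ran from -0.27 (Prg4) to 0.25 (Gpm6a), with a median of 0.07 over the 8 genes, against 0.00 over all genes.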

How the data were processed

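Lung RNA of 36 mouse samples was read on Affymetrix Mouse Gene 1.0 ST arrays. The authors deposited linear intensities, 1 per probe set and array, and the submitters' processing notes name Affymetrix Expression Console and PLIER for making them. Versions, settings and build are not given in the sources used here. The intensities were turned to log2(intensity + 16), which understates changes of dim genes, and quantile-normalized. Of 35556 probe sets, 21789 had 1 gene symbol. The probe set of highest mean was kept for 19938 genes, and the 14953 at or above the 25th percentile were tested.

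All tests came from 1 limma fit (limma 3.58.1, R 4.3.3) with a mean for each of 18 groups, 18 residual degrees of freedom, moderated variances and Benjamini-Hochberg adjustment over all genes tested at 0.05. The scripts were tested on simulated arrays. Arrays give no read depth, and their number limits the precision. The same array number was not treated as a pairing. Over 153 pairs of groups the deviations of same-numbered arrays correlated at -0.380 to 0.424, with a median of 0.0173. Of these pairs, 47 were above 0.1. The range does not settle whether some same-numbered arrays belong together.

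The 8 genes and the gene lists were chosen with earlier results of these data known. All 8 genes are named, and from each list those that passed or had the smallest p. The alternatives were a pseudocount of 1, the scale as deposited, array weights, a filter at the 50th percentile or none, the mean of all probe sets, variances with trend and robust fitting, a block for array number, each strain alone, and each array left out. Leaving out the 2 highest arrays, week 3, or the arrays with skin genes was added after seeing the data.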

Additional observations from a re-analysis of the deposited data

Results flagged for a closer look

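A few changes with NNK ran in opposite directions in every array of the weeks or strains compared, and in none of these cases was the difference itself tested. Muc16 at week 3 differed between the strains by -1.89, A/J minus C3H, since NNK-treated arrays were below both untreated ones in A/J (-0.82) and above both in C3H (1.07). Without the 2 arrays of week 3 that stood apart, it was -0.737, with -0.29 in A/J and 0.45 in C3H. In A/J its change at week 3 less that at week 9 was -1.05, with the arrays on opposite sides, and -0.523 without these 2 arrays.

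In C3H lungs the change at week 3 less that at week 9 was 0.927 for Msln, 0.670 for Upk3b and 1.56 for Wt1, with NNK-treated arrays above the untreated ones at week 3 and below them at week 9. For Lrrn4 the change at week 3 less that at week 6 was 0.995. Without the 2 arrays, these 4 values were 0.649 for Msln, 0.246 for Upk3b, 0.607 for Wt1 and 0.360 for Lrrn4. The change of Msln at week 6 less week 9 was 0.371 and that at week 9 less week 12 was -0.340. For Gpm6a these were 0.255 and -0.303. With 2 arrays a group, such arrangements are frequent: in C3H at week 9, NNK-treated arrays were above untreated ones without overlap for 13.7% of all genes and below them for 16.1%.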

How the results depend on the processing

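The number of mesothelial genes past the threshold changed in some comparisons without the 2 highest arrays. That fit leaves 1 array in each of their groups, and its counts are not listed here. The number also changed in the following settings, and the cause was not tested. For the week trend in untreated A/J (1 gene), it was 0 on the deposited scale, with array weights and with each strain's own arrays. These settings called 1856, 1678 and 1710 of 14953 genes. The number was 5 without week 3, where 3616 of 14953 genes were called. The call of Gpm6a was also lost without the arrays with skin genes, a fit that leaves 1 array at week 0. For NNK in C3H at week 3 (1 gene), it was 0 with the filter at the 50th percentile, which removes Prg4, with trended robust variances (Prg4 adjusted p = 0.0717) and without the arrays with skin genes (0.0530). For untreated A/J minus C3H (2 genes), it was 1 with the 50th percentile filter, where 6353 of 9969 genes were called. For NNK-treated A/J minus C3H (0 genes), it was 4 without week 3, where Prg4 turned to 1.24 and 7268 of 14953 genes were called. For NNK in A/J (0 genes) it was 1 without week 3, where 2170 of 14953 genes were called. For NNK in A/J at week 6 (0 genes) it was 1 (Msln) without week 3, where 1614 of 14953 genes were called.

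In the fits that lack 1 array each, between 0 and 7 genes passed for NNK in C3H at week 3, between 2 and 4 for untreated A/J minus C3H and between 0 and 2 for NNK in A/J at week 3, the week trend in A/J, the difference of the NNK changes, NNK-treated A/J minus C3H and both F tests. Over the 14953 genes tested, these fits called 0 to 425 for NNK in C3H at week 3. They called 7894 to 8664 for untreated and 7278 to 8270 for NNK-treated A/J minus C3H. For both strain comparisons, the share of mesothelial genes called in either direction was below that of all genes. The upper ends of the mesothelial counts came without the first untreated A/J array of week 3 (Msln, Prg4) or the second (week trend). Others came without 1 of the NNK-treated C3H arrays of week 3. Where such a fit leaves a group with 1 array, that array is assumed to vary like the other groups. Prg4 and Lrrn4 held in untreated A/J minus C3H in all 36 such fits. Of the single-gene values in these fits, 33 gained and 7 lost the call, and 0 changed direction past the threshold. With the array number as a replicate block, no call of a mesothelial gene changed (Prg4 in C3H at week 3 stayed at 4.40).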
